A study of Homo sapiens with 6 samples.

Results

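Collagen chain genes encode the polypeptides that assemble by threes into the collagen triple helix, the main protein scaffold of the extracellular matrix. The 44 genes described here are those whose NCBI gene identifier maps to a protein-coding symbol of the form COL, number, A, number, out of 28395 genes in the count table. They were placed in structural groups: 11 fibrillar, 10 FACIT (fibril-associated collagens with interrupted triple helices), 9 network-forming, 4 transmembrane and 5 beaded-filament chains, with 2 multiplexins and 3 chains that form anchoring fibrils or belong to none of these. RNA from U251 cells (U251MG in the labels), a human glioblastoma cell line, was sequenced in 3 WT libraries and 3 NUAK2-CR libraries, in which CRISPR-Cas9 was directed at NUAK2, a serine/threonine kinase of the AMPK-related family. The comparison asks how the matrix genes of these glioma cells differ when NUAK2 has been targeted. According to the methods, edited cells were sorted singly into clones, but the labels name no clone, so clonal origin and the edit cannot be told apart. Nor do the labels say whether libraries of a group came from separate cultures, so p-values measure the spread between these libraries only, which may be technical.

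Fibrillar collagens build the load-bearing fibres of connective tissue, and FACIT chains sit on the surface of those fibres. Type IV collagen forms the sheet-like network of basement membranes, type VI forms beaded filaments around cells, and the transmembrane collagens stay anchored in the plasma membrane. Normal brain parenchyma holds little fibrillar collagen and keeps its collagen mostly in vascular basement membranes, whereas glioblastoma cells in culture can make many chains themselves. In bulk RNA, fewer cells making a transcript and less RNA per cell cannot be told apart.

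Libraries held 29648445 to 55574081 counts, and the first principal component, with 79.6% of the variance, separated the groups. NUAK2 itself was at 1926, 1457 and 1580 normalized counts in WT and at 799, 961 and 849 in NUAK2-CR, with a log2 change of -0.93 (SE 0.11, adjusted p = 1.8e-05). Transcript therefore remained, and counts over the whole gene do not show the edit. The median log2 change over the 100 tested genes nearest to NUAK2 was -0.44, and the part of the region was not tested. Of 6 genes marking the astroglial and glioblastoma line, 5 were lower in NUAK2-CR, beside 28.2% of all genes tested, and SOX9 did not pass the test. The summed level of the 6 was 228386 to 233434 normalized counts in WT and 103534 to 110448 in NUAK2-CR. Endothelial markers summed to 25.8 to 34.5 and 86.8 to 90.2, with PECAM1 at 2, 0 and 0 counts in WT. Immune markers summed to 658 to 741 and 204 to 250.8, nearly all of it CD68, with AIF1 at 0 in all 6 libraries. Mural and fibroblast markers summed to 1561 to 1882 and 1967 to 2069, with PDGFRB and LUM higher, RGS5 and PDGFRA lower and DPT not tested. The part that these marker differences had in the collagen results was not tested.

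More than 4 in 5 of the collagen chains that could be tested differed between WT and NUAK2-CR cells, and they moved in both directions. Of the 44 genes, 34 had enough counts to test, and 28 of those had an adjusted p under 0.05, which is 82.4% against 54.5% of all 14873 genes tested. Of these, 17 were higher in NUAK2-CR, beside 26.3% of all genes, and 11 were lower, beside 28.2%. The 3 libraries of 1 group lay wholly above those of the other for 29 of the 34 chains, beside 61.4% of all genes. The median log2 fold change was 0.32 over the collagen chains and -0.01 over all genes, and the median size of the change without its sign was 0.77 against 0.37.

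With the study's thresholds for a DEG, an adjusted p under 0.05 with a log2 fold change beyond 2 either way, 8 collagen genes qualified. The 5 higher ones were COL15A1, COL2A1, COL14A1, COL12A1 and COL13A1, where 1.89% of all genes were DEGs on the higher side. The 3 lower ones were COL5A3, COL17A1 and COL9A3, where 2.83% of all genes were DEGs on the lower side. COL5A3 passed the filter on low counts through WT alone, so the filter fixed its direction. COL15A1 would not have passed on its WT libraries alone. COL12A1 and COL13A1 lay just inside the threshold, at 2.07 and 2.05, and COL8A1 just outside it, at 1.90. The count of higher DEGs was 3 when WT replicate 1 was left out and also 3 without NUAK2-CR replicate 1, because COL12A1 (2.00 both times, below 2 before rounding) and COL13A1 (1.90 and 1.97) then fell under the threshold.

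The 10 chains not tested were COL10A1, COL11A2, COL19A1, COL20A1, COL22A1, COL23A1, COL26A1, COL6A5, COL6A6 and COL9A1. Among them 3 had a count of 0 in every library, COL20A1, COL6A5 and COL9A1. The other 7 never exceeded 15 counts in a library or 28 in all, so no difference was detectable at this depth. COL5A3 was the 1 tested chain under the minimum count in every library of 1 group, and it passed the filter on low counts through WT alone. COL15A1 and COL28A1 would not have passed on their WT libraries alone. Nor would COL4A3 and COL24A1 have passed on their NUAK2-CR libraries alone. This limits what the directions of these chains show.

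**Figure D1:**
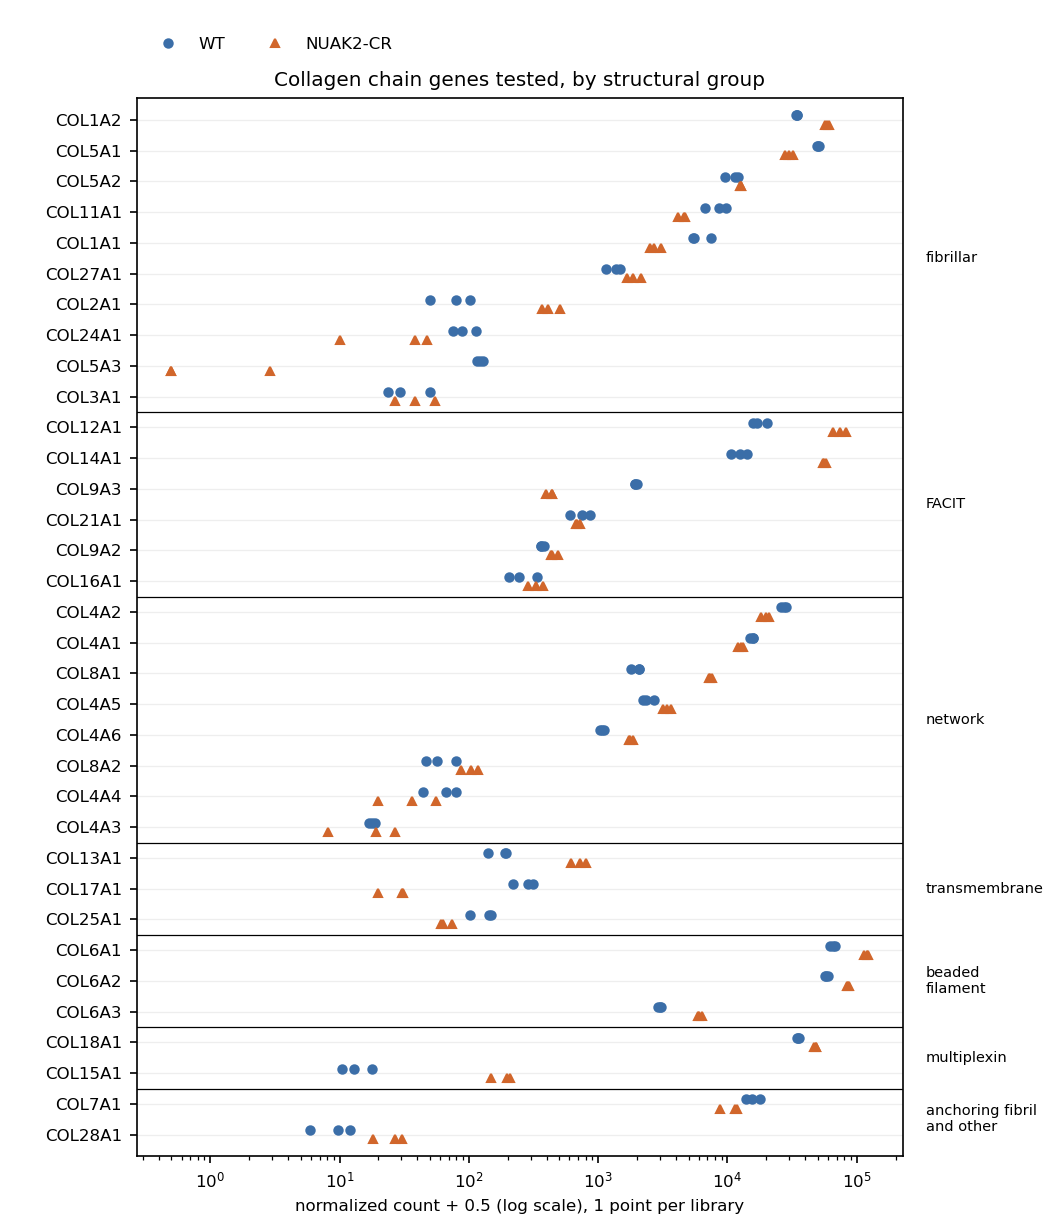
Level of each tested collagen gene in each library, as normalized count plus 0.5 on a log scale, with circles for the 3 WT and triangles for the 3 NUAK2-CR libraries and genes grouped by structure. COL6A1 reaches 122579 normalized counts at the top, while COL5A3 in NUAK2-CR sits at 0 to 2.41, and for 29 of the 34 genes the circles and triangles do not overlap.

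Collagen transcripts took a larger part of the library in NUAK2-CR. Counts on all 44 chains together were 0.979%, 1.01% and 0.979% of each WT library and 1.52%, 1.52% and 1.44% of each NUAK2-CR library. Every NUAK2-CR library lay above every WT library, and the exact two-sided permutation test over the 6 libraries gave p = 0.1, the smallest that 3 against 3 allows. Most of the gain came with type VI, type XII and type XIV chains and COL1A2, whose values follow.

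Levels of different chains are compared per kilobase of the Ensembl canonical transcript. On that scale, in counts per kilobase per 1000000 counts of effective library size, the highest level in WT was COL6A2 at 453, then COL6A1 at 414. COL1A2 (181), COL18A1 (174), COL5A1 (157) and COL4A2 (112) came next. In NUAK2-CR the levels were 664 for COL6A2, 757 for COL6A1, 309.8 for COL1A2, 236 for COL18A1, 95.0 for COL5A1 and 81.2 for COL4A2. The makeup of the collagen transcripts also separated the groups. Fibrillar chains held 24.0% ± 0.309 (SD, n = 3) of collagen counts per kilobase in WT and 17.8% ± 0.294 in NUAK2-CR. Network chains held 10.8% ± 0.180 and 6.89% ± 0.0244. FACIT chains went the other way, from 6.03% ± 0.481 to 13.4% ± 0.700. Beaded-filament chains, the largest share in both groups, held 47.2% ± 0.474 and 52.0% ± 0.545. Each of the 7 group shares was separated without overlap between WT and NUAK2-CR, with an exact permutation p of 0.1 each, also after adjustment over the 7 groups. The shares add to a whole and so are not independent, and 61.4% of all genes tested did not overlap either.

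**Figure D2:**
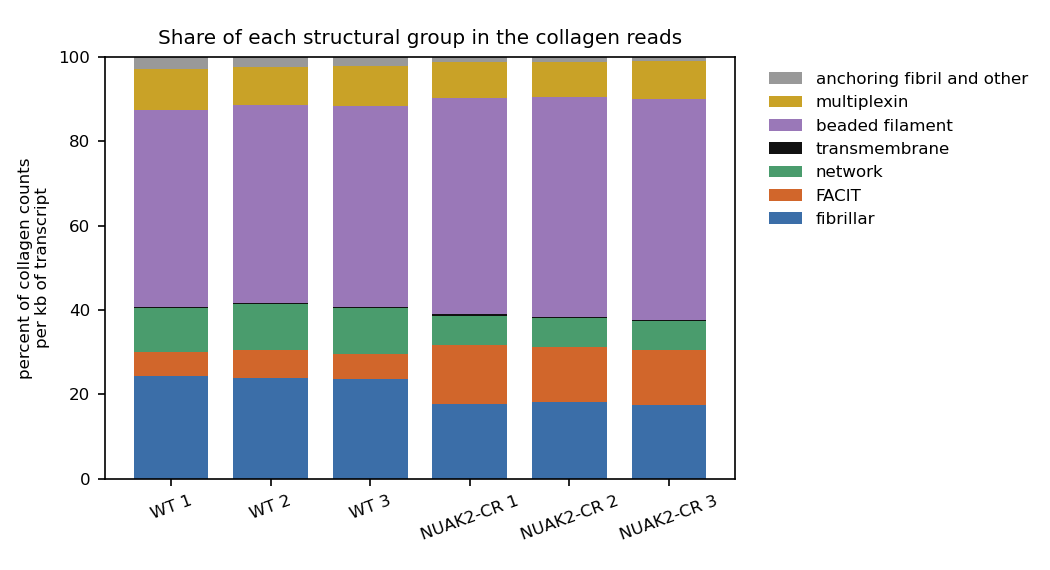
Share of each structural group in the collagen counts per kilobase of transcript, in percent, 1 stacked bar per library. The FACIT band is about 6% in the WT bars and 13.4% on average in the NUAK2-CR bars, and the fibrillar band falls from 24.0% to 17.8%.

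Among single chains the fall of the fibrillar share was mainly that of COL5A1, which held 8.49% ± 0.353 in WT and 3.43% ± 0.125 in NUAK2-CR. COL14A1 rose in share from 2.23% ± 0.270 to 6.76% ± 0.146 and COL12A1 from 2.17% ± 0.236 to 6.08% ± 0.606. COL6A1 held 22.3% ± 0.518 and 27.4% ± 0.124. COL6A2 is the exception among the 12 chains with the highest share, at 24.4% ± 0.614 and 24.0% ± 0.634, where the libraries of the groups overlapped and the exact permutation p was 0.5. For the other 11 it was 0.1, or 0.109 adjusted over the 12.

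Fibrillar chains split evenly, 5 of the 10 tested being above 0 and 5 below in log2 fold change. Of the 10, 3 were higher in NUAK2-CR at an adjusted p under 0.05, COL1A2, COL2A1 and COL27A1, beside 26.3% of all genes. Another 5 were lower, COL1A1, COL5A1, COL5A3, COL11A1 and COL24A1, beside 28.2% of all genes, while COL3A1 and COL5A2 did not pass. Their median was -0.27, which lay above 0 in fits that changed which low chains were tested, so no direction is given to the group.

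The chains of type I collagen, the most abundant collagen of the body, moved apart. COL1A2, the alpha 2 chain (chr7:94394895-94431227), was at 33619, 34619 and 34821 normalized counts in WT and at 58644, 61406 and 56732.5 in NUAK2-CR. The groups were well separated, at 0.78 (SE 0.06, adjusted p = 7.03e-07) on the log2 scale. COL1A1, the alpha 1 chain (chr17:50184101-50201631), was at 7492, 5379.96 and 5544 in WT and at 2724, 3057 and 2501 in NUAK2-CR. Every NUAK2-CR library was lower, and the log2 fold change was -1.15 (SE 0.12, adjusted p = 5.54e-06). The median log2 change over the 100 tested genes nearest to COL1A1 was -0.45, and 0.15 for those near COL1A2, and the part of the region in either value was not tested.

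Type V chains, which sit inside type I fibrils and limit their width, also diverged. COL5A1 (chr9:134641803-134844843) was at 50760.2, 49807 and 48879 normalized counts in WT and at 30179, 31961 and 28092 in NUAK2-CR, without overlap (log2 fold change -0.73, SE 0.07, adjusted p = 2.28e-06). COL5A2, the alpha 2 chain, was at 9491, 12057 and 11459.8 in WT and at 12728, 12727 and 12605 in NUAK2-CR. Its groups did not overlap, but the difference of 0.21 (SE 0.09) had an adjusted p of 0.0575, and it passed the threshold with DESeq2, with library-size scaling, without the filter and without WT replicate 2. COL5A3, the alpha 3 chain (chr19:9959561-10010504), had 172, 133 and 113 counts in WT and 0, 2 and 0 counts in NUAK2-CR. The transcript was thus near the limit of detection in NUAK2-CR, and the ratio of WT to NUAK2-CR was 152 with a 95% exact interval of 41.9 to 1260.4, which covers counting error only (adjusted p = 3.53e-07). The filter on low counts fixed this direction, so the p-value is no independent support for it. The fitted log2 fold change of -7.05 depends on the prior count. Without NUAK2-CR replicate 2, which holds both counts, it was -9.97.

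The largest rise among fibrillar genes was that of COL2A1, the chain of cartilage type II collagen (chr12:47972967-48006212). It was at 49.1, 102 and 79.5 normalized counts in WT and at 410.1, 504 and 368 in NUAK2-CR, 5.55-fold higher on average (log2 fold change 2.49, SE 0.24, adjusted p = 2.33e-06). COL11A1, a minor fibrillar chain found with type II collagen in cartilage, went down instead. It was at 6716, 9673 and 8614 in WT and at 4732.5, 4611 and 4132 in NUAK2-CR, with a log2 change of -0.89 (SE 0.11, adjusted p = 3.06e-05). COL24A1 was at 88.3, 75.2 and 113 in WT and at 38.1, 9.65 and 47.2 in NUAK2-CR (-1.53, SE 0.41, adjusted p = 0.00745). The median over the 100 nearest tested genes was -0.48 for COL11A1 and -0.34 for COL24A1, and the part of the region was not tested. COL27A1 was at 1467, 1363 and 1144 and at 2145, 1861 and 1679 (0.51, SE 0.11, adjusted p = 0.00153). COL3A1, a main chain of skin and vessel walls, was low in both groups at 23.1 to 49.8 and 26.5 to 53.8, with overlapping libraries (0.20, SE 0.38, adjusted p = 0.694).

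FACIT chains held both strong rises and a strong fall. Of 6 tested, 3 were higher in NUAK2-CR at an adjusted p under 0.05 (COL12A1, COL14A1 and COL9A2), 1 was lower (COL9A3) and 2 did not pass (COL16A1 and COL21A1). Over all genes 26.3% were higher and 28.2% lower. The FACIT median was 0.32, but 0.12 with DESeq2 and 0.10 without the filter on low counts. COL12A1, whose product links fibrils to the surrounding matrix (chr6:75084326-75206053), was at 15880.1, 20284 and 16901 normalized counts in WT. In NUAK2-CR it was at 82742, 74153 and 65241, 4.19-fold higher (log2 fold change 2.07, SE 0.11, adjusted p = 1.21e-08). COL14A1, a close relative of COL12A1 (chr8:120124454-120373573), was at 10615, 14216 and 12437 in WT and at 57824, 56165 and 54419 in NUAK2-CR. It was 4.52-fold higher (2.18, SE 0.10, adjusted p = 3.51e-09), and the median over its 100 nearest tested genes was 0.56. COL14A1 and COL13A1 were picked by the study from these same libraries together with patient tumour data, and then measured by quantitative PCR. Their direction here is therefore not independent evidence.

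Type IX collagen is a FACIT heterotrimer of cartilage, and 2 of its 3 chain genes were tested. COL9A3 (chr20:62816213-62841159) was at 1914, 1915 and 2009 normalized counts in WT and at 436, 437 and 397 in NUAK2-CR. All NUAK2-CR libraries lay far below WT, at a log2 fold change of -2.20 (SE 0.08, adjusted p = 8.96e-10). COL9A2 moved the other way, from 384, 362 and 360.1 to 430.5, 492 and 441 (0.30, SE 0.11, adjusted p = 0.0375), and its adjusted p was 0.0519 with DESeq2 and 0.0647 to 0.144 without WT replicate 2 or 3 or NUAK2-CR replicate 2 or 3. In gene span COL9A3 overlaps TCFL5, which had 8966 counts against 7802 for COL9A3 and was higher in NUAK2-CR by 0.51. The counting ran with default parameters, which take no account of strand, and overlap of exons was not checked. What the overlap does to either count is therefore uncertain. COL16A1 was at 205 to 333 in WT and 289 to 373 in NUAK2-CR (0.33, adjusted p = 0.14, or 0.56 and 0.00823 without WT replicate 1), and COL21A1 at 600.5 to 869 and 672 to 724 (-0.09, adjusted p = 0.587).

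**Figure D3:**
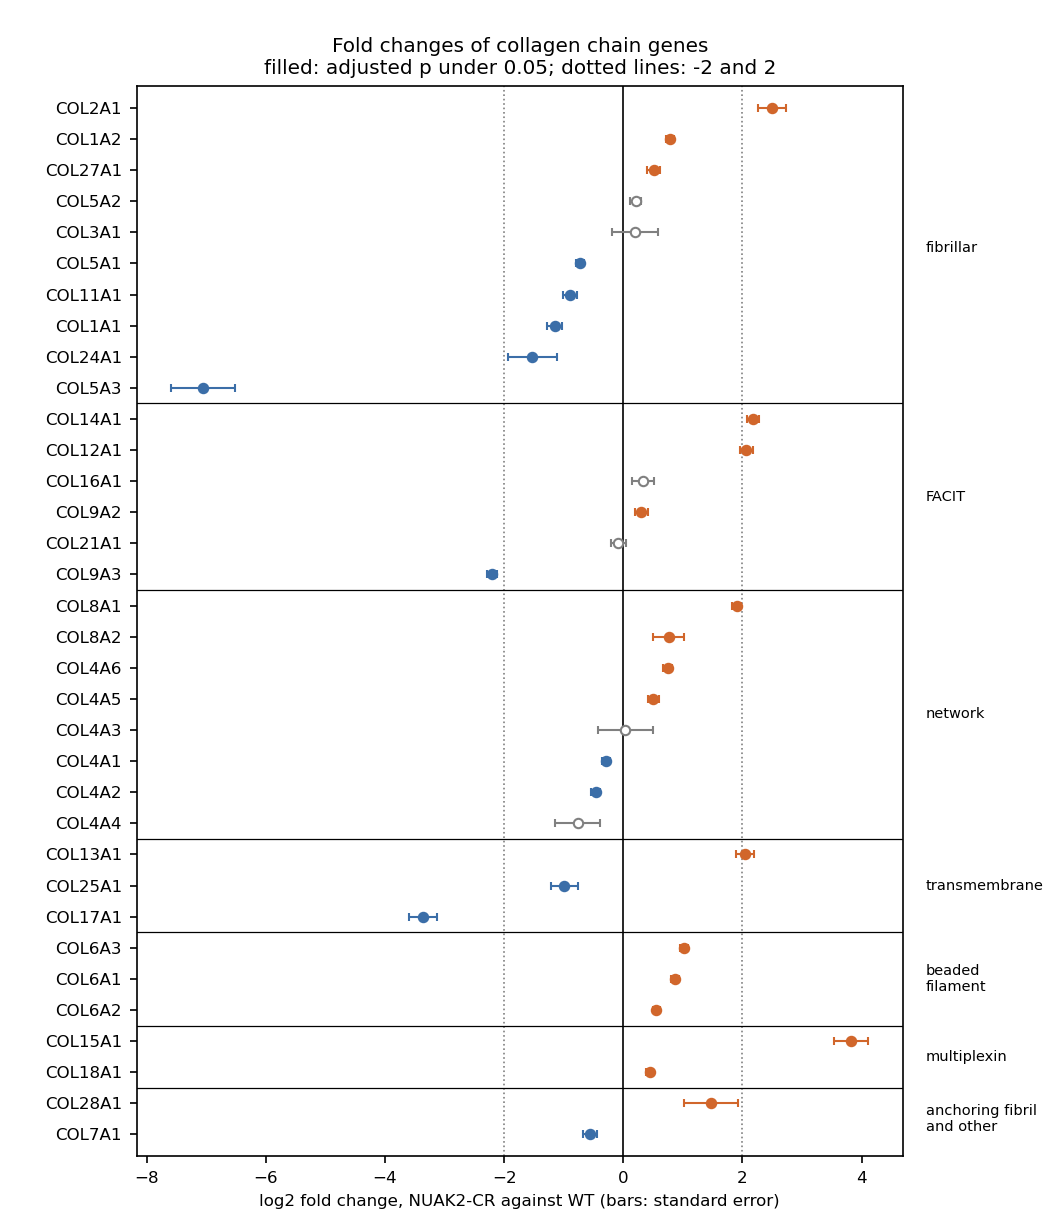
Fitted log2 fold change of NUAK2-CR against WT for the 34 tested collagen genes, grouped by structure, with bars of 1 standard error. Filled points have an adjusted p under 0.05, dotted lines mark -2 and 2, and the range runs from COL5A3 at -7.05, a value that depends on the prior count, to COL15A1 at 3.83.

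Network-forming chains moved in both directions. Of 8 tested, 4 were higher in NUAK2-CR (COL4A5, COL4A6, COL8A1 and COL8A2), 2 were lower (COL4A1 and COL4A2) and COL4A3 and COL4A4 did not pass. Over all genes 26.3% were higher and 28.2% lower. The network median was 0.27, but 0.12 without NUAK2-CR replicate 2, 0.43 without NUAK2-CR replicate 1 and 0.51 with DESeq2. COL4A1 and COL4A2 encode the common basement membrane heterotrimer. COL4A2 (chr13:110307284-110513209) was at 25985, 28153 and 27202 normalized counts in WT and at 19807, 20835 and 18277 in NUAK2-CR, with a log2 change of -0.47 (SE 0.07, adjusted p = 1.33e-04). COL4A1 (chr13:110148963-110307157) was at 15061, 15901 and 15749.8 and at 12787, 13156 and 12154 (-0.29, SE 0.06, adjusted p = 0.00205). Neither gene's groups overlapped, beside 61.4% of all genes tested without overlap. The 100 tested genes nearest to each had a median of -0.38 for COL4A1 and -0.37 for COL4A2. Less that shift, the values were 0.08 for COL4A1 and -0.10 for COL4A2, and the part of the region was not tested.

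COL4A5 and COL4A6, which encode chains of specialised basement membranes, were both higher. COL4A6 was at 1034, 1102 and 1069.5 normalized counts in WT and at 1735, 1870.5 and 1753 in NUAK2-CR (log2 fold change 0.74, SE 0.07, adjusted p = 3.87e-06). COL4A5 was at 2203, 2722 and 2348 and at 3686, 3183 and 3434 (0.50, SE 0.09, adjusted p = 4.03e-04). Their region moved the opposite way, with a median of -0.56 over the 100 nearest tested genes of each. COL4A3 and COL4A4 were low, at means of 17.3 and 63.3 in WT and 17.6 and 36.6 in NUAK2-CR. Their libraries overlapped, with adjusted p of 0.959 for COL4A3 and 0.105 for COL4A4, and COL4A4 passed without WT replicate 1 (0.0394) or NUAK2-CR replicate 3 (0.0318). In gene span COL4A3 overlaps MFF-DT, with 131 counts against 105, and COL4A4 overlaps RHBDD1, with 3968 against 303. These counts are therefore uncertain too.

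Type VIII collagen, a short-chain network collagen of vessel walls and the cornea, showed the strongest network change. COL8A1 (chr3:99638594-99799217) was at 1779.5, 2078 and 2056 normalized counts in WT and at 7296, 7176 and 7621 in NUAK2-CR, 3.74-fold higher (log2 fold change 1.90, SE 0.08, adjusted p = 1.64e-09). COL8A2 was scarcer, at 55.8, 79.1 and 46.2 and at 86.3, 117 and 104 (0.76, SE 0.26, adjusted p = 0.0245), a call lost without WT replicate 1 or 3 or NUAK2-CR replicate 2 or 3 (adjusted p 0.0501 to 0.0898). Both chains were higher in each NUAK2-CR library than in any WT library, where 61.4% of all genes tested did not overlap in either direction. The 100 tested genes nearest to COL8A2 had a median of -0.42, the opposite way.

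The 6 type IV genes lie in head-to-head pairs, their starts 126 bases apart for COL4A1 and COL4A2, 135 for COL4A4 and COL4A3 and 379 for COL4A6 and COL4A5. The windows of 250 bases before to 50 after the start are shown from RefSeq (GRCh38.p14) because the 2 genes of a pair are read outwards from nearly the same sequence. The COL4A2 window (chr13:110307034-110307333, plus strand) and the COL4A3 window (chr2:227164374-227164673, plus strand) also hold the start of the partner gene, and the COL4A6 window (chrX:108439409-108439708, minus strand) holds its own start. Capitals mark matches, on either strand, to TATAAA for the TATA box, CCAAT for the CCAAT box, GGGCGG for the GC box, GGAATG for the TEAD core or TGANTCA for the AP-1 motif, which reads the same on both strands.
COL4A2: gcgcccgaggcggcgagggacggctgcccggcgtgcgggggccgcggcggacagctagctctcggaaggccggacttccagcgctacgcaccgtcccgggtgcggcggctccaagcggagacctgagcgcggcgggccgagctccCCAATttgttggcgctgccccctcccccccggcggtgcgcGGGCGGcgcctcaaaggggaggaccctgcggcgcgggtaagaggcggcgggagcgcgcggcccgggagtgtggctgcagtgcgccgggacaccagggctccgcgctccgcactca
COL4A3: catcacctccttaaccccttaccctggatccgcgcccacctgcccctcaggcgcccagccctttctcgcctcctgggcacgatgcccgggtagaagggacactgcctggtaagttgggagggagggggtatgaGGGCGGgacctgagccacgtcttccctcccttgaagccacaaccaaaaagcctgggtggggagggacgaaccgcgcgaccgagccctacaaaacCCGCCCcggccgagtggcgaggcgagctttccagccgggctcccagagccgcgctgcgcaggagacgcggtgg
COL4A6: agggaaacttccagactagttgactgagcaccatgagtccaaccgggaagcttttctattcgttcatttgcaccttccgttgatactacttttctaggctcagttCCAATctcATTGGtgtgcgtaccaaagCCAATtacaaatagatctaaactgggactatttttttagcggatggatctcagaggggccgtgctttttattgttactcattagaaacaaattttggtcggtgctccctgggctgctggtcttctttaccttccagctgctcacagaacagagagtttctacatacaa

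The COL4A2 window, at 77.7% G and C with 45 CpG, held 1 CCAAT and 1 GC box. The COL4A3 window, at 67.7% with 24 CpG, held 2 GC boxes, and the COL4A6 window, at 43.7% with 7 CpG, held 3 CCAAT boxes. There were 44 windows on hand for 32 of the 44 collagen genes. Of these windows, 24 held a GC box, against 44.95% of all 35116 windows, 14 a CCAAT box (34.6%), 8 a TATA box (11.5%), 3 a TEAD core (14.03%) and 1 an AP-1 motif (7.71%). A match describes letters only.

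The 3 transmembrane genes tested all changed, beside 54.5% of all genes tested, and not in 1 direction. COL17A1, the hemidesmosomal collagen of epithelia (chr10:104031286-104085880), was at 316, 219 and 285 normalized counts in WT and at 30.5, 19.3 and 29.6 in NUAK2-CR. WT was 10.3-fold above NUAK2-CR, with no library between (log2 fold change -3.36, SE 0.24, adjusted p = 1.92e-07). COL13A1, a collagen of the neuromuscular junction and of cell adhesion sites (chr10:69801906-69959144), was at 140.2, 193 and 191 in WT and at 810.1, 727 and 615 in NUAK2-CR (2.05, SE 0.15, adjusted p = 3.26e-07). COL25A1, a neuronal transmembrane collagen, was at 102, 148 and 142 and at 62.2, 73.6 and 60.4 (-0.99, SE 0.23, adjusted p = 0.00271).

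All 3 type VI chains tested were higher in NUAK2-CR, with a median of 0.87, beside 26.3% of all genes that were higher. COL6A1 (chr21:45981770-46005048) was at 61858, 68051 and 65865 normalized counts in WT and at 120681, 122579 and 114810 in NUAK2-CR (log2 fold change 0.87, SE 0.07, adjusted p = 3.34e-07). COL6A2, its neighbour on the same strand (chr21:46098112-46132848), was at 57261, 58054 and 60189 and at 84527, 87621 and 85325.5 (0.55, SE 0.06, adjusted p = 9.55e-06). COL6A3, the long chain of the same heterotrimer, was at 3000.4, 3057 and 2886 and at 5985, 6317 and 5872 (1.02, SE 0.07, adjusted p = 7.79e-08). No library of 1 group reached the other for any of the 3 chains, beside 61.4% of all genes tested without overlap.

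The multiplexins are basement membrane collagens whose C-terminal ends are released as the anti-angiogenic fragments restin and endostatin. Both were higher, beside 26.3% of all genes. COL15A1 (chr9:98943907-99070787) had 15, 13 and 16 counts in the WT libraries and 164, 164 and 135 in NUAK2-CR. After normalization that was 13.2 ± 3.67 against 185 ± 32.1 (SD, n = 3), 13.96-fold (log2 fold change 3.83, SE 0.28, adjusted p = 2.76e-07), the largest rise of any collagen chain. Its WT libraries alone would not have passed the filter on low counts, which favoured a rise. COL18A1 (chr21:45405165-45513720), already abundant, was at 35008, 34774 and 36049.8 and at 47109, 48057 and 48488 (0.44, SE 0.06, adjusted p = 6.37e-05). COL7A1, the anchoring fibril collagen of the skin basement membrane zone (chr3:48564073-48595329), was lower. It was at 17852, 15596 and 13809.6 in WT and at 11932, 11345 and 8817 in NUAK2-CR (-0.56, SE 0.12, adjusted p = 0.00131). COL28A1 (chr7:7338194-7543870) rested on few counts, 5.37 to 11.6 normalized counts in WT and 17.8 to 29.6 in NUAK2-CR (1.47, SE 0.45, adjusted p = 0.0152). Its call was lost without WT replicate 3, without NUAK2-CR replicate 2 or without NUAK2-CR replicate 3 (adjusted p 0.0595, 0.05001 and 0.065). COL28A1 would also not have passed the filter on its WT libraries alone.

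Because collagen chains work as trimers, the ratio of partner chains was taken within each library, where scaling between libraries has no effect. Of 10 planned ratios 8 had at least 10 counts for both chains in every library, and COL4A3/COL4A4 and COL11A1/COL11A2 did not. All 8 differed between the groups without overlap, each with an exact permutation p of 0.1, also 0.1 after adjustment, the smallest this design allows. Of single genes 61.4% also did not overlap, and no such share was taken for ratios of other gene pairs. The chains of type I collagen shifted most among the abundant ones. COL1A1 per COL1A2, by length, was 0.191, 0.133 and 0.137 in WT and 0.0398, 0.0427 and 0.0378 in NUAK2-CR, a difference of -1.92 in log2 ratio. In the type I heterotrimer the alpha 1 chain is the more numerous partner, and in every library here COL1A1 was the scarcer transcript. COL5A1 per COL5A2 went from 3.68 ± 0.540 to 1.92 ± 0.114 (SD, n = 3). COL9A2 per COL9A3 went from 0.166 ± 0.00938 to 0.940 ± 0.0663, subject to the overlap with TCFL5.

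Ratios of the other 5 pairs were as follows. COL4A1 per COL4A2 was 0.566 ± 0.00826 in WT and 0.638 ± 0.0166 in NUAK2-CR by length. COL6A1 per COL6A2 was 0.914 ± 0.0406 and 1.14 ± 0.0342, and COL6A3 per COL6A1 was 0.0182 ± 0.000977 and 0.0203 ± 0.000411. COL4A5 per COL4A6 was 2.31 ± 0.185 and 1.97 ± 0.218. COL8A1 per COL8A2 went from 28.3 ± 7.90 to 61.3 ± 9.80. That last pair differed by 1.12 in log2 ratio, more than the 0.94 by which COL5A1 per COL5A2 dropped, and the other 4 pairs by 0.15 to 0.32 without regard to sign.

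**Figure D4:**
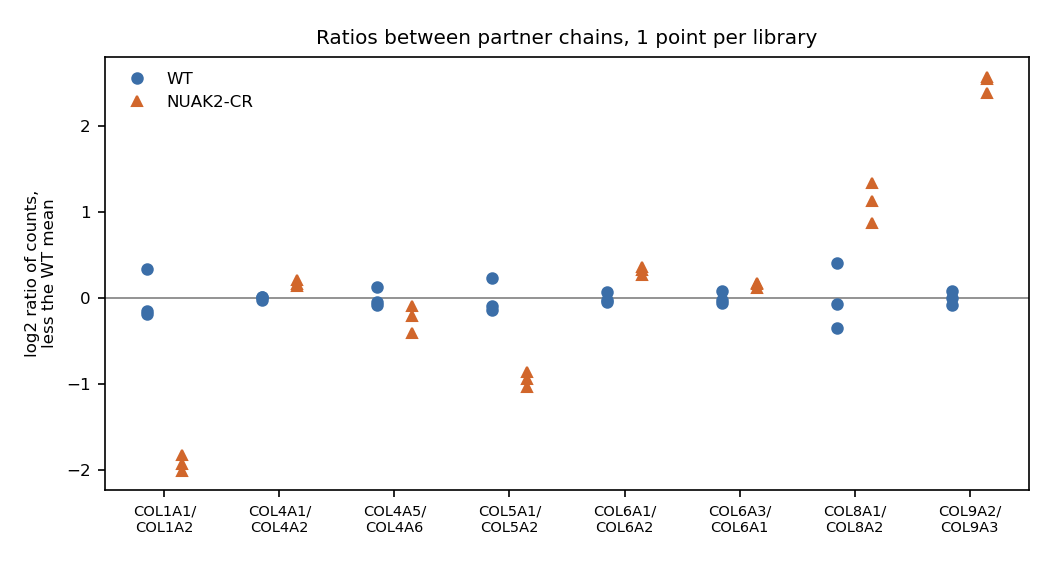
Log2 ratio of counts between chains that assemble together, less the WT mean of the pair, with 1 point per library, circles for WT and triangles for NUAK2-CR. COL1A1/COL1A2 lies 1.92 below the WT mean on average, COL9A2/COL9A3 lies 2.50 above, and COL4A1/COL4A2 and COL6A3/COL6A1 lie within 0.2.

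Genes that modify, process, cross-link, export or bind collagen were read in the same fit from a list by role. Of 58 listed, 49 were tested, 25 were higher and 8 were lower at an adjusted p under 0.05, beside 26.3% and 28.2% of all genes, with a median log2 fold change of 0.24. Among the 18 genes of hydroxylation and folding 9 were higher and 3 lower. COLGALT2, a collagen galactosyltransferase, rose by 1.47 and FKBP10, a prolyl isomerase, by 0.91, while P4HB, the beta subunit of prolyl 4-hydroxylase, fell by 0.60 on the log2 scale. SERPINH1, the collagen chaperone HSP47, was at 0.13 and did not pass. Of 5 crosslinking enzymes 3 were higher, LOXL1 by 1.45, LOXL4 by 0.69 and LOX by 0.36, and LOXL2 and LOXL3 did not pass. In the 7 secretion genes 1 was higher and 1 lower.

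Propeptide processing moved both ways, with 4 of 8 genes higher and 3 lower, beside 26.3% and 28.2% of all genes. ADAMTS14, a procollagen N-proteinase, was at 215, 185 and 162 normalized counts in WT and at 1243, 1152 and 1119 in NUAK2-CR (log2 fold change 2.63, SE 0.12, adjusted p = 3.04e-09). Like COL13A1 and COL14A1, ADAMTS14 was picked by the study from these same libraries and patient tumour data, and measured by quantitative PCR. Its direction here is therefore not independent evidence. ADAMTS2, the main enzyme of that class, rose by 1.43. TLL2, a tolloid-like metalloproteinase of the family that removes C-propeptides, was at 249.8, 169 and 191 in WT and at 15.2, 7.24 and 6.59 in NUAK2-CR (-4.40, SE 0.32, adjusted p = 2.41e-07). The groups were far apart for ADAMTS14 and TLL2, but TLL2 had 12, 6 and 6 counts in the NUAK2-CR libraries. TLL2 would not have passed the filter on low counts on those libraries alone, which favoured a fall.

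Of 12 collagen receptors 8 were tested, 5 were higher and ADGRG1 was lower, beside 26.3% and 28.2% of all genes. DDR2, a receptor tyrosine kinase for fibrillar collagens, was higher by 1.85, ITGA10 by 1.83 and ITGA2 by 1.04. Of 8 fibril-associated proteoglycans 3 were tested, DCN, LUM and BGN. BGN (biglycan) was higher by 0.49, while DCN and LUM stayed under the minimum count in every WT library and passed the filter through NUAK2-CR alone, so the filter fixed their direction. DCN (decorin), which binds fibrils and restrains their growth, had 9, 0 and 2 counts in the WT libraries and 154, 175 and 180 in NUAK2-CR (log2 fold change 5.97, SE 0.44, adjusted p = 2.77e-07). LUM (lumican), also on the mural and fibroblast marker list, had 2, 8 and 9 counts and 24, 27 and 33 (2.50, SE 0.55, adjusted p = 0.00197). Both were low in every WT library, so their fitted folds carry wide counting error.

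**Figure D5:**
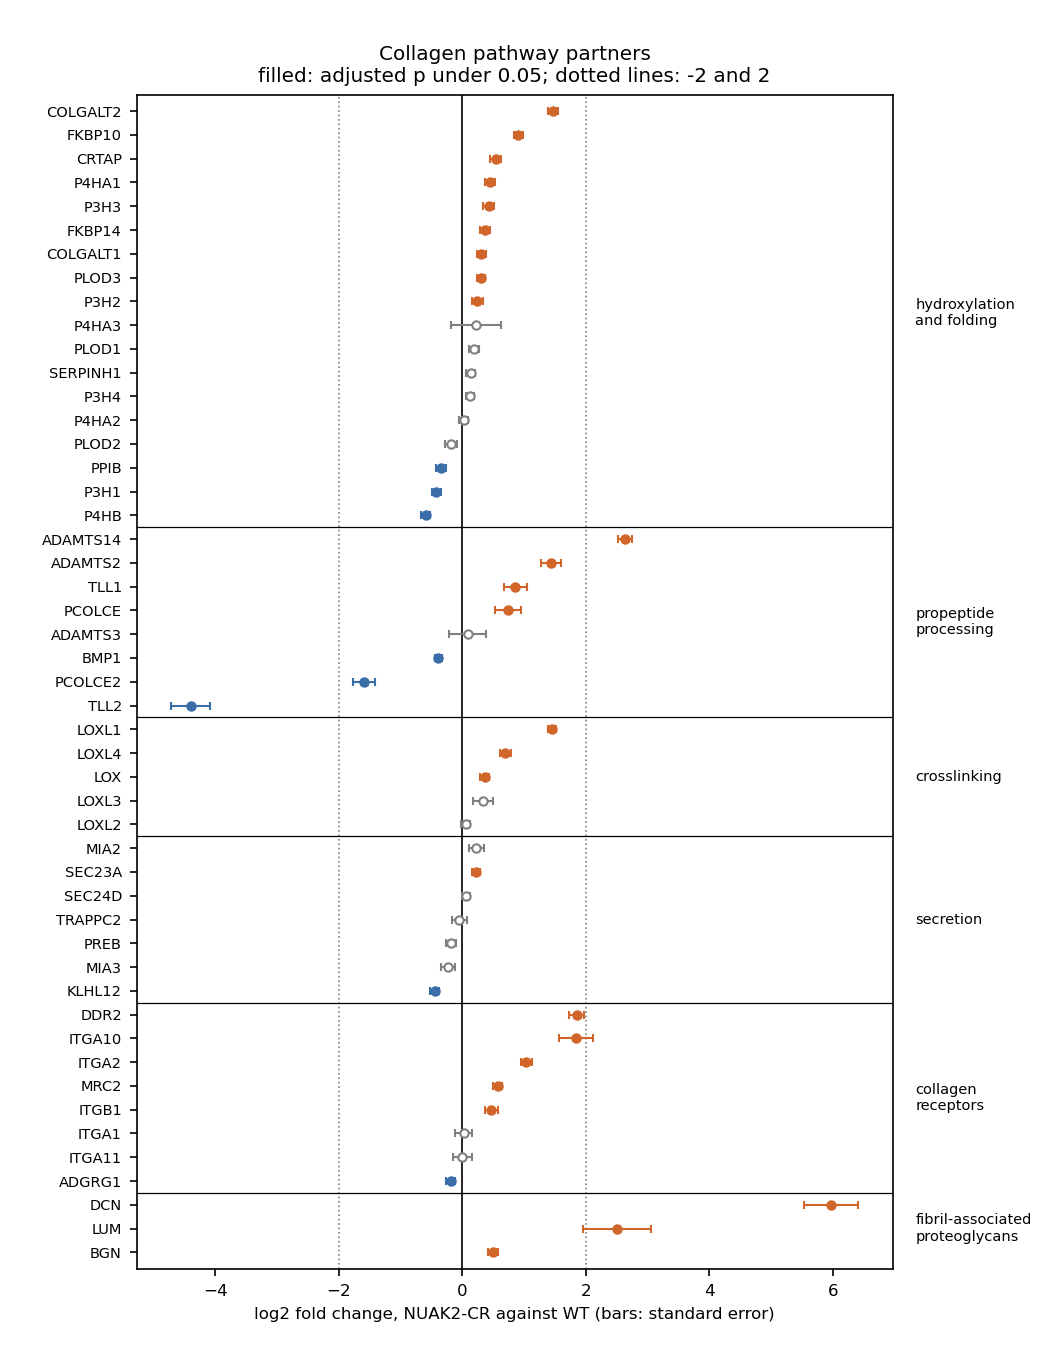
Fitted log2 fold change of NUAK2-CR against WT for the 49 tested partner genes of collagen by role, with bars of 1 standard error. Filled points have an adjusted p under 0.05, dotted lines mark -2 and 2, and DCN at 5.97 and TLL2 at -4.40 lie at the ends.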

How the data were processed

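RNA of 6 U251 libraries, 3 WT and 3 NUAK2-CR, was isolated with TRIzol and prepared with the Illumina Stranded mRNA Prep kit. Trimmomatic, HISAT2 (genome hg38) and featureCounts were run by the authors, who deposited unnormalized counts per gene. They ran with default parameters, under which featureCounts ignores strand. The gene annotation is not given in the sources used here. All values were whole, with library totals of 29648445 to 55574081. Symbols and places came from RefSeq (GRCh38.p14), matching 27745 of 28395 identifiers and leaving 650 unmatched. Lengths are those of Ensembl canonical transcripts in GENCODE 44.

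Groups came from the labels. All genes were fitted in R 4.3.3 with edgeR 4.0.16 (filterByExpr with a minimum count of 10, TMM, quasi-likelihood F test, prior count 0.125, Benjamini-Hochberg adjustment over 14873 genes), where the study used DESeq2. Normalized counts are scaled to the mean effective library size, and the standard error is the log2 fold change divided by the square root of F. Shares and chain ratios were tested with exact two-sided permutations over the 6 libraries. The fit was checked on simulated data. Replicates of a group differed by more than sampling noise, so none was counted as a repeat of another, although repeat preparations of 1 culture cannot be told from separate cultures.

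The collagen members, structural groups and partner lists were chosen with earlier results of these data known. Full values are given for DEGs, for the 2 members of each structural group with the highest mean, and for COL13A1 and COL14A1, which the study chose. Other members are given by value or range. Of the partners, DEGs are named, with further partners named after their values were seen. Alternatives were DESeq2 1.42.0, RLE or library-size scaling, no filter, at least 10 counts in every library, a replicate block, 0.5 added to counts in ratios, a prior count of 2, a threshold of 1, subtraction of the median of 100 neighbouring genes, and each library left out. The share of the effective library size was added after seeing the data.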

Additional observations from a re-analysis of the deposited data

How the results depend on the processing

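With 3 libraries a group, single values rest on few samples, low chains such as COL28A1 and COL4A3 are limited by depth, and the reads of overlapping genes stay uncertain. Same-numbered WT and NUAK2-CR libraries did not deviate together (correlations 0.043, -0.035 and 0.048), so the numbers pair no samples. With a replicate block 29 collagen chains had an adjusted p under 0.05 against 28 without it, COL5A2 being added, and the partner median was 0.29. The count of 28 was 25 to 29 over all alternatives. An absolute log2 fold change over 1 gave 13 DEGs, 8 higher and 5 lower. Leaving out each library in turn gave 6 to 8 DEGs, 3 to 5 of them higher. DESeq2 gave medians of 0.21 for fibrillar, 0.12 for FACIT, 0.51 for network, 0.72 for beaded-filament and 1.497 for anchoring and other chains. Without the filter the same medians were 0.19, 0.10, 0.50, 0.70 and 1.46. With at least 10 counts in every library they were 0.20 for fibrillar, 0.50 for network and -0.56 for anchoring and other chains. These 3 settings change which chains are tested. Leaving out each library moved the fibrillar median over -0.39 to -0.25, FACIT over 0.23 to 0.45, network over 0.12 to 0.43, beaded-filament over 0.84 to 0.90, anchoring and other over 0.30 to 0.56, transmembrane over -1.14 to -0.89 and the partner median over 0.23 to 0.30. Without division by length the transmembrane share differed by -0.0116 percentage points, against 0.0576 with it. Signs turned for COL21A1 without WT replicate 2 (0.05, range -0.21 to 0.05), COL3A1 without WT replicate 2 (-0.02) or NUAK2-CR replicate 3 (-0.10, range -0.10 to 0.61) and less its neighbours (-0.0029), COL4A1 less its neighbours (0.081), and COL4A3 with the replicate block (-0.068), on leaving out libraries (-0.37 to 0.40) and less its neighbours (-0.021). The causes were not tested. Calls were lost on leaving out a library for COL28A1, COL8A2 and COL9A2, and with DESeq2 for COL9A2. Without the filter 17 chains were higher, as in the main fit, although COL5A2 was added, so another higher call was lost there. Of 539 values for 39 genes, 508 kept direction and, where there was a call, the call. Values less the neighbours had no adjusted p, and a prior count of 2 left the adjusted p unchanged, so neither could lose a call.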
